A study of Mus musculus with 12 samples.

Results

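The genotype effect shared by both treatments was taken from all 12 arrays of the series, each of RNA from the jejunum of a male mouse. It is the mean of 2 differences, knockout minus wild type on vehicle and knockout minus wild type on IIAEK, so that 6 knockout arrays stand against 6 wild-type arrays. IIAEK is a milk-derived peptide named by the letters of its amino acids and studied because it lowers serum cholesterol. The wild-type and the IAP-KO (Akp3-/-) mice, 3 in each of the 4 groups, were 7 weeks old when dosing began. They received by mouth, once a day for 14 days, either the vehicle, 5 g/L carboxymethylcellulose sodium salt, or IIAEK at 600 mg/kg body weight, and the jejunum was taken after 8 h of fasting. The strain, the breeding of the controls and the way the Akp3 allele was made are not given in the sources used here. Replicates are numbered in the labels and are taken as separate mice.

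Intestinal alkaline phosphatase (IAP) is an enzyme of the enterocyte brush border that removes phosphate groups from nucleotides, phospholipids and bacterial endotoxin in the gut lumen. In the mouse it is encoded by related genes in a cluster on chromosome 1: Akp3, which gives the duodenal form, Alpi, which is expressed along the small intestine, and Alppl2, known from the early embryo. Alpl, the form of bone, liver and kidney, lies on chromosome 4. The enzyme is known for limiting the response to endotoxin and for a part in fat absorption, and the design allows the question which jejunal genes differ between the genotypes whichever solution the mice drank.

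The promoters of the 3 clustered genes are shown because all 3 genes had lower mean levels in the knockout on both treatments. None of the 3 passed an adjusted p of 0.05, and on vehicle the arrays of both genotypes overlap in each. Each sequence covers 250 bases before to 50 bases after the RefSeq start in GRCm38.p6, read 5′ to 3′ on the strand of the gene. Akp3 lies on the plus strand at chr1:87124704-87125003, Alppl2 on the minus strand at chr1:87089879-87090178 and Alpi on the minus strand at chr1:87101557-87101856. Capitals mark the runs of at least 10 bases that all 3 sequences hold.
Akp3: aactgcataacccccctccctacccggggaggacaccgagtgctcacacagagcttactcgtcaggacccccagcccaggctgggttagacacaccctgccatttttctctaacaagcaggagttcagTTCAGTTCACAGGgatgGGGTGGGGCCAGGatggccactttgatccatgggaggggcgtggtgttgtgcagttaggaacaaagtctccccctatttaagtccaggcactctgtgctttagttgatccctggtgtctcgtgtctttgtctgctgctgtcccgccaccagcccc
Alppl2: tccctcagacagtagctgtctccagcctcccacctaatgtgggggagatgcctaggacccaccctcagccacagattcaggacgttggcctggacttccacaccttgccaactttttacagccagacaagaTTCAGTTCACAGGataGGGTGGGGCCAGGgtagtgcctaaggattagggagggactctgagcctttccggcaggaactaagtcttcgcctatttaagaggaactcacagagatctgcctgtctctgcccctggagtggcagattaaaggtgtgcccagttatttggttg
Alpi: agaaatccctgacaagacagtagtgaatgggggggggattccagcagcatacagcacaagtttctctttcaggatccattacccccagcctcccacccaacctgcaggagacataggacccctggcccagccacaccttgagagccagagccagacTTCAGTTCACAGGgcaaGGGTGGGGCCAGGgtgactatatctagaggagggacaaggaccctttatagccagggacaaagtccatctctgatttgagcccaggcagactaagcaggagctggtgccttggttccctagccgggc
The first shared run, TTCAGTTCACAGG, begins 122 bases before the start in Akp3, 119 before it in Alppl2 and 94 before it in Alpi. Searched on both strands, it occurs in 10 of the 32851 RefSeq mouse promoters of this length, or 0.0304%. The second, GGGTGGGGCCAGG, begins 105, 103 and 77 bases before the start in the same order and occurs in 16 promoters, or 0.0487%. Both counts include the 3 promoters from which the runs were taken. The runs do not overlap each other, and they describe how alike the 3 promoters are.

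Levels are log2 signals above or below the array's 75th percentile, and a difference is knockout minus wild type. That percentile lay at a signal of 575 to 815, and between 59.99% and 67.1% of an array's spots rose well above background. The number of arrays limits the precision. All 16 jejunal enterocyte markers were well above background on all 12 arrays, from Slc2a2, a glucose carrier, with a lowest level of 1.77, to Fabp2, a fatty acid binding protein, with a highest of 9.07. The arrays lay on 2 slides: slide 1 carried 2 wild-type and 4 knockout arrays, evenly from both treatments, and slide 2 the reverse. Genotype is therefore unevenly spread over slides, and values with the slide as a block or within a slide are given beside the calls, the main counts and the list medians that turned with it.

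Akp3, the targeted gene, was below background on all 6 knockout arrays, and its signal was at least 3.14-fold lower than in wild type. In wild type its lowest level was -6.42, its median -4.10 and its highest -1.61, and 5 of 6 arrays were well above background. The knockout levels ran from -7.33 over a median of -6.81 to -5.96. The single wild-type array below background, vehicle replicate 3, lies within the knockout range, and the other wild-type arrays lie above it. The difference of -3.04 (SE 0.549) did not reach the threshold (limma adjusted p = 0.223). It was -1.69 on vehicle and -4.40 on IIAEK, and the unadjusted limma p was not under 0.05 on both treatments. The Akp3 difference was -0.87 with normexp correction on median signals, another background method that draws dim signals together. Leaving out wild-type IIAEK replicate 1 gave -3.50, which passed (adjusted p = 0.0343), and no other of the 24 alternatives that tested Akp3 passed. A second, dimmer Akp3 probe differed by -2.42, with -0.84 on vehicle and -3.99 on IIAEK. It was well above background on 2 wild-type arrays, both on IIAEK, and on 0 knockout arrays. The labels do not say which stretch of the gene is missing, and whether the probes lie in it was not examined.

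Of the 4 alkaline phosphatase genes, 3 had negative differences on both treatments, 1 had positive ones, and none passed the threshold. Alppl2 had its lowest, median and highest level at -3.50, -2.68 and -1.42 in wild type. The knockout arrays gave -4.05, -3.62 and -3.13. Its difference was -1.15 (SE 0.216, limma adjusted p = 0.246), with -0.28 on vehicle and -2.02 on IIAEK (unadjusted p of the interaction 0.00188, adjusted 0.310). On vehicle the arrays of both genotypes overlap, whereas on IIAEK all 3 wild-type arrays lie above the knockout arrays. Without wild-type IIAEK replicate 1 the Alppl2 difference was -1.34 and passed (adjusted p = 0.0343). Alpi, in the same order, was at 4.68, 5.37 and 5.82 in wild type, whereas the knockout arrays gave 3.99, 4.72 and 5.06. Its difference was -0.73 (SE 0.179, adjusted p = 0.515), with -0.30 on vehicle and -1.15 on IIAEK, and the ranges overlap. Alpl differed by 0.23 (SE 0.247, adjusted p = 0.982).

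**Figure D1:**
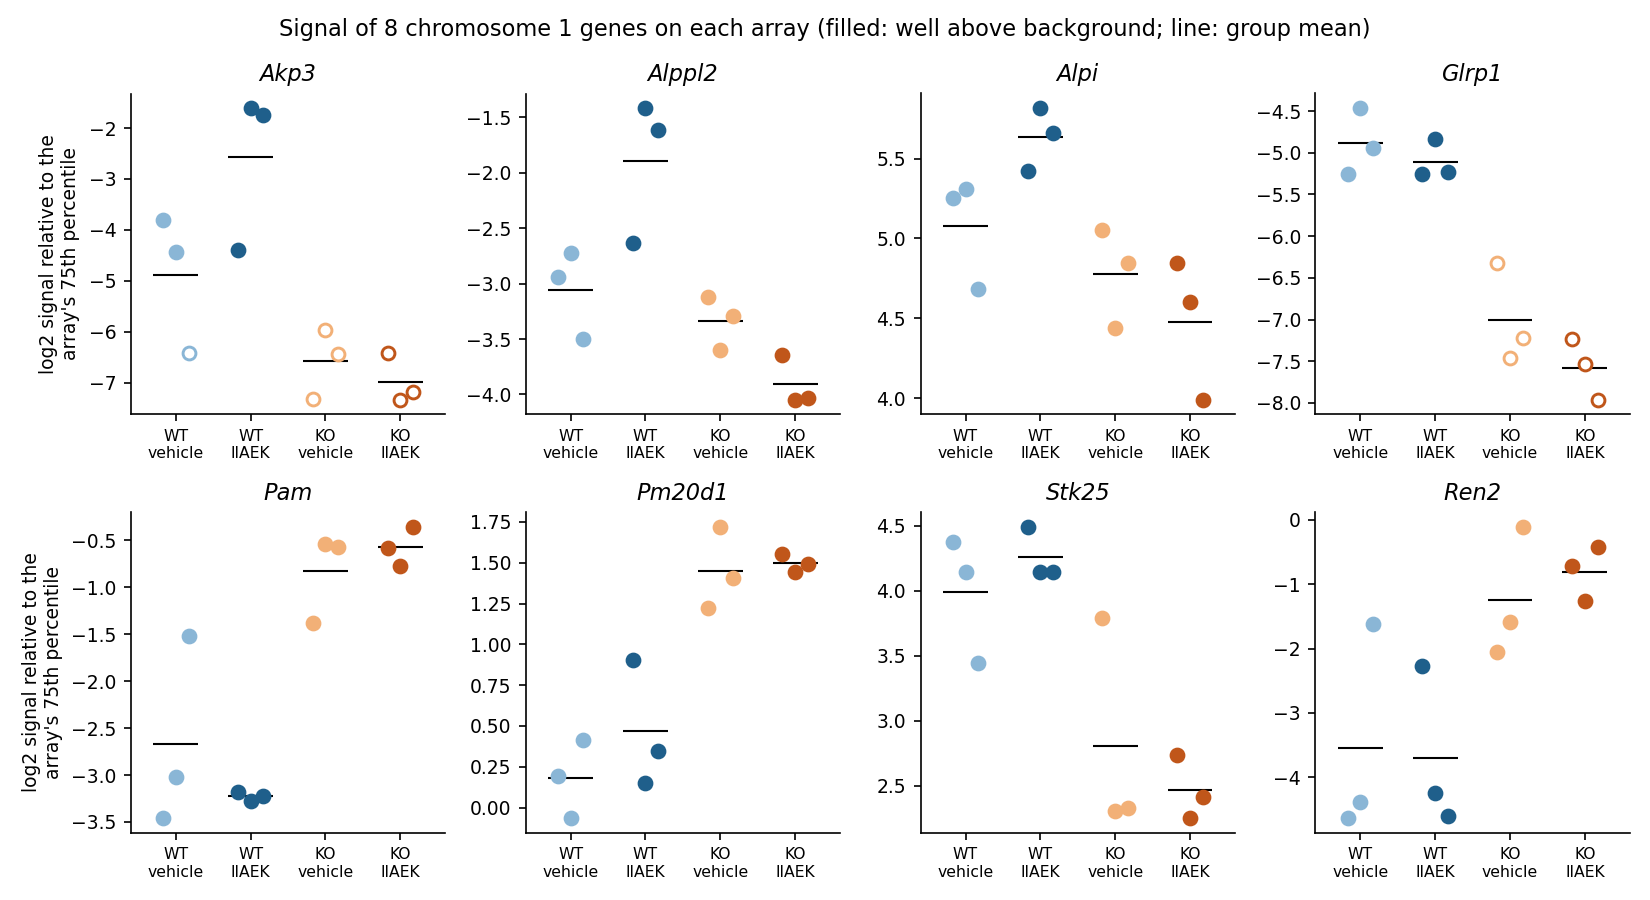
Log2 signal relative to the array's 75th percentile (y axis) of 8 chromosome 1 genes on each of the 12 arrays, by group (x axis). Each point is an array, open points are not well above background, and lines are group means. Akp3 and Glrp1 are open on all 6 knockout arrays, and Pam and Pm20d1 are higher on every knockout array than on any wild-type array.

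Over the whole array, 1 of 27565 genes passed an adjusted p of 0.05 in the genotype main effect (0.00363%). This was Glrp1, which fell, and 0 genes rose (0.00%). At an unadjusted p under 0.05 there were 1479 genes (5.37%), 735 with positive (2.67%) and 744 with negative differences (2.70%), and at an unadjusted p under 0.001 there were 62 (0.225%). Knockout and wild-type arrays did not overlap, 6 against 6, in 99 genes (0.359%), 59 higher (0.214%) and 40 lower (0.145%) in the knockout. With the slide as a block limma again called 1 gene, Glrp1. Within slide 1 it was 0 and within slide 2 it was 114, 103 of them in the same direction on both treatments, each slide with 6 arrays only and 1 array in some of its groups.

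Few genes differed on both treatments, and whether the same or opposite directions were more frequent turned with the slide term, the filter on dim probes and single arrays. On vehicle 3132 genes had an unadjusted p under 0.05 (11.4%) and on IIAEK 2112 (7.66%), with 0 past the adjusted threshold in either (0.00%). Both treatments had p under 0.05 in the same direction in 111 genes (0.403%), which is 3.54% of the vehicle genes and 5.26% of the IIAEK genes. They had opposite directions in 214 genes (0.776%), or 6.83% and 10.1%. The vehicle and IIAEK differences share no array but have the same slide layout. Their p-values come from the same limma fit, with a variance pooled over all its arrays, so the p-values are not independent. A gene with a small pooled variance passes more easily on each treatment. The same-direction and opposite counts are therefore not agreement or disagreement between separate tests. With the slide as a block the same-direction count was 263 and the opposite count 169. The same-direction genes were also the more frequent without a filter on dim probes (195 against 180), without wild-type IIAEK replicate 3 (117 against 72), without knockout IIAEK replicate 2 (161 against 116), without knockout vehicle replicate 1 (166 against 154) and without knockout IIAEK replicate 3 (141 with the same direction). Of all tested genes, 37.6% had the same sign on both treatments. The interaction had an unadjusted p under 0.05 in 4157 genes (15.1%) and an adjusted p under 0.05 in 0 (0.00%).

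The 111 genes comprised 64 that were higher (0.232%) and 47 that were lower (0.171%) in the knockout. Their main effect ran from 0.287 to 3.64 in size with a median of 0.745. In 49 of them the 6 knockout arrays did not overlap the 6 wild-type arrays, against 99 of all 27565 genes (0.359%), and 1 had an interaction p under 0.05. Both counts follow in part from the rule that chose the 111 on these same arrays, so neither is further support. RefSeq symbols were found for 51, and 60 are probes without one. Akp3, Alppl2 and Alpi were not among the 111, although their differences had the same sign on both treatments.

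**Figure D2:**
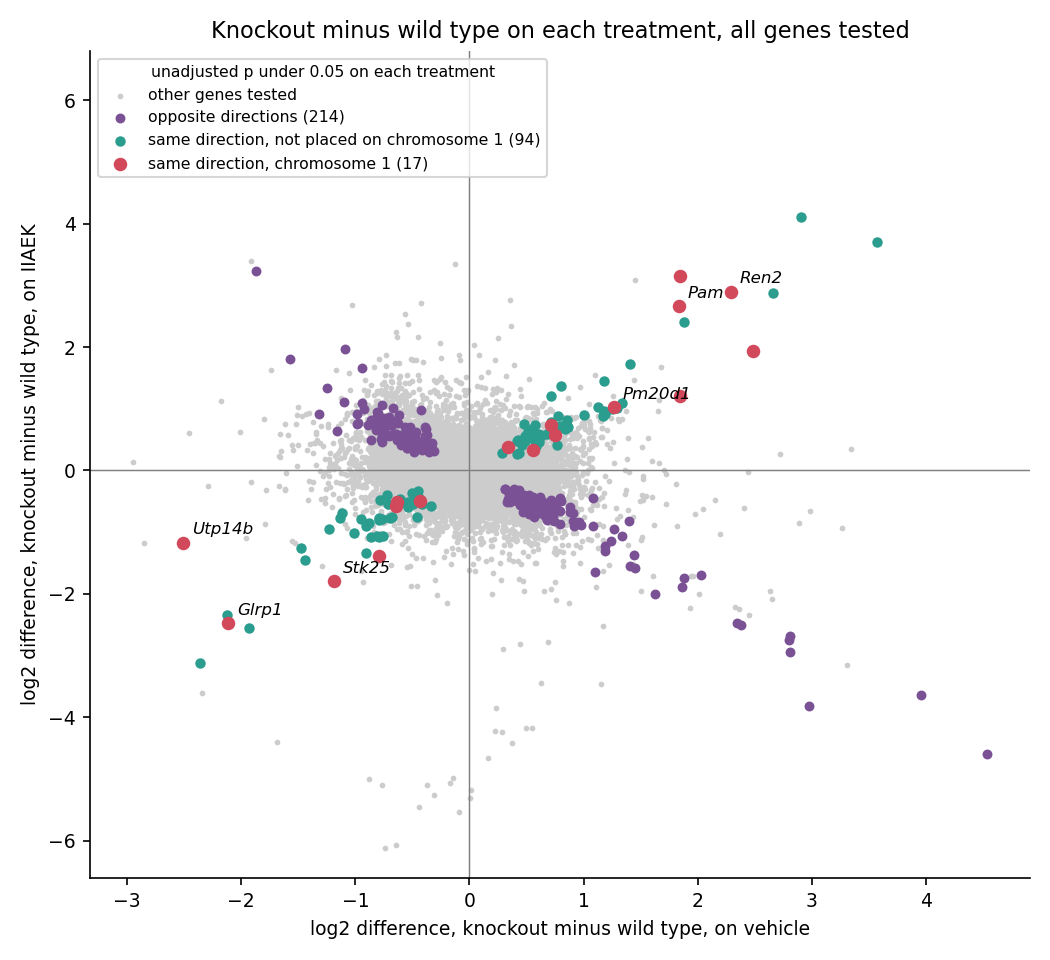
Log2 difference, knockout minus wild type, on vehicle (x axis) and on IIAEK (y axis) for each tested gene. Coloured points have an unadjusted p under 0.05 on each treatment: 214 in opposite directions, 94 in the same direction and not placed on chromosome 1, and 17 in the same direction on chromosome 1.

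Glrp1, glutamine repeat protein 1, was the gene that passed. Its levels in wild type were -5.26, -4.46 and -4.95 on vehicle and -5.25, -4.83 and -5.24 on IIAEK. In the knockout they were -6.33, -7.46 and -7.22 on vehicle and -7.23, -7.54 and -7.96 on IIAEK. All wild-type arrays were above background, no knockout array was, and the genotypes did not overlap. The difference was -2.29 (SE 0.217, limma adjusted p = 0.00886), with -2.11 on vehicle and -2.47 on IIAEK and an unadjusted p of the interaction of 0.427. Since the knockout signal lies under the detection limit, the data set the fall at 1.31-fold or more (at least 1.31-fold lower). The call was lost with normexp correction on median signals (-0.30, adjusted p = 0.445), within slide 1 (-1.88, 0.367) and without knockout IIAEK replicate 2 (-2.30, 0.0518). It held with the slide as a block (-2.30, 0.0489) and within slide 2 (-2.72), and 20 of the 24 alternatives that tested Glrp1 kept it. In the order of tested genes along chromosome 1, Glrp1 is the 19th after Akp3.

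Among genes with a position, the next by p-value were mostly on chromosome 1 too. Of the 13 genes with a limma adjusted p under 0.1, Glrp1 included, 6 had a position and 5 lay on chromosome 1. None of the genes in the following sentences passed. Pam, the enzyme that amidates peptide hormones, stood at -3.46, -3.02 and -1.52 on the wild-type vehicle arrays and at -3.18, -3.27 and -3.22 on the wild-type IIAEK arrays. In the knockout it stood at -1.38, -0.54 and -0.57 on vehicle and at -0.58, -0.77 and -0.35 on IIAEK. The genotypes did not overlap, although wild-type vehicle replicate 3 and knockout vehicle replicate 1 came close to each other. The difference was 2.25 (SE 0.286, adjusted p = 0.0628), a 4.75-fold higher signal. A further, dimmer Pam probe differed by 0.13, so the probes of this gene disagree. The Pam difference passed without wild-type vehicle replicate 3 (2.54, adjusted p = 0.000392), without knockout vehicle replicate 1 (2.39, 0.0333), with normexp on median signals (1.61, 0.0244) and with quantile normalization (2.24, 0.0467), and its sign was the same under all 25 alternatives.

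Pm20d1, a secreted enzyme that joins and splits fatty acids and amino acids, was also higher on every knockout array. Its levels were 0.19, -0.06 and 0.41 on wild-type vehicle, 0.90, 0.15 and 0.35 on wild-type IIAEK, 1.22, 1.72 and 1.41 on knockout vehicle and 1.56, 1.44 and 1.49 on knockout IIAEK. The highest wild-type array, IIAEK replicate 1, stayed below the lowest knockout array. The difference was 1.15 (SE 0.148, limma adjusted p = 0.0628), with 1.27 on vehicle and 1.03 on IIAEK. It passed without wild-type IIAEK replicate 1 (1.26, adjusted p = 0.0140), without knockout vehicle replicate 1 (1.21, 0.0407), with normexp (1.08, 0.0244) and with quantile normalization (1.16, 0.0467). Ddx59, an RNA helicase, ran from -3.18 over -2.92 to -2.74 in wild type and from -2.34 over -2.31 to -2.15 in the knockout. Its difference of 0.66 (SE 0.0913, adjusted p = 0.0783) came with 0.26 in a second probe that was above background on 4 arrays, and it passed with quantile normalization (0.65, adjusted p = 0.0467).

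Utp14b, a gene of ribosomal RNA processing known for its role in sperm production, was lower on every knockout array. Its lowest, median and highest levels were -2.59, -1.40 and -0.59 in wild type, against -4.21, -3.23 and -2.64 on the knockout arrays. The difference was -1.84 (SE 0.274, limma adjusted p = 0.0783), with -2.51 on vehicle and -1.17 on IIAEK (unadjusted p of the interaction 0.0321). Stk25, a kinase of the Golgi, stood at 4.38, 4.15 and 3.44 on wild-type vehicle and 4.50, 4.15 and 4.14 on wild-type IIAEK. In the knockout it stood at 3.79, 2.31 and 2.32 on vehicle and 2.74, 2.25 and 2.41 on IIAEK. Knockout vehicle replicate 1 lay among the wild-type arrays and the other 5 knockout arrays lay below all of them. The Stk25 difference was -1.49 (SE 0.260, adjusted p = 0.193) in the brighter probe and -1.60 in the dimmer. Without knockout vehicle replicate 1 it was -1.73 and passed (adjusted p = 0.0128). Rab7b, a small GTPase of endosomal traffic, showed the same array out of place, with 0.33 on knockout vehicle replicate 1 against -0.98 to -0.37 on the other knockout arrays and 0.16 to 0.79 in wild type. Its difference was -1.09 (SE 0.191, adjusted p = 0.195), and -1.23 without that array, which passed (adjusted p = 0.0425), as it did within slide 2 (-1.45, 0.0480).

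The genes with the same direction on both treatments were concentrated on chromosome 1. Of the 51 with a position, 17 lay there (33.3%, 95% exact binomial interval 20.8 to 47.9), against 912 of the 15810 tested genes with a position (5.77%). Put the other way, 1.86% of the chromosome 1 genes differed in the same direction, and 0.228% of the genes on the other chromosomes. The interval treats genes as independent, which neighbours on a chromosome need not be. Among Akp3 and its 100 nearest tested genes on each side, 8 of 201 did so (3.98%). The genes with opposite directions had 10 of 137 on chromosome 1 (7.30%) and 1 near Akp3. Chromosome 1 held 89 of 736 positioned genes at an unadjusted p under 0.05 (12.1%), 13 of 24 under 0.001 (54.2%), and 11 of 52 without overlap (21.2%). Of the 17, 10 were higher and 7 were lower in the knockout. The share on chromosome 1 was lower with the slide as a block (18.05%) and without knockout IIAEK replicate 2 (17.8%). It was also lower within each slide, and within slide 2 it came near the share over all tested genes with a position. No other chromosome had a share of its genes above 0.411% in the same direction.

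**Figure D3:**
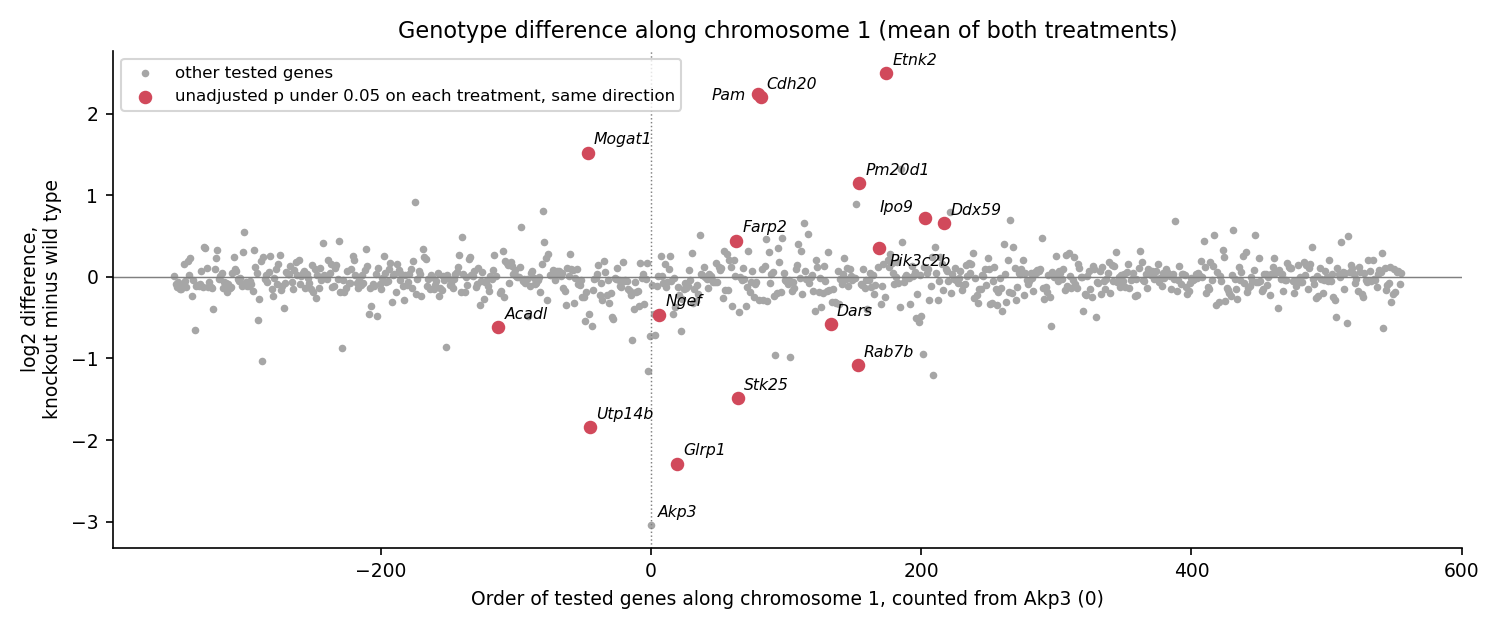
Log2 difference, knockout minus wild type as the mean of both treatments (y axis), of the tested genes in their order along chromosome 1, counted from Akp3 at 0 (x axis). Red points have an unadjusted p under 0.05 on each treatment in the same direction; they run from Acadl at -113 to Ddx59 at 217, and Ren2, which the annotation puts on an alternate locus, is not drawn.

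Counted in tested genes from Akp3, the 17 apart from Ren2 lie from 113 genes before it to 217 genes after it. The order leaves out 3 of the 912 tested genes of the chromosome, which stand on an alternate locus. Acadl (-113), Mogat1 (-47) and Utp14b (-45) lie before Akp3. After it follow Ngef (6), Glrp1 (19), Farp2 (63), Stk25 (64), Pam (79), Cdh20 (81), Dars (133), Rab7b (153), Pm20d1 (154), Pik3c2b (169), Etnk2 (174), Ipo9 (203) and Ddx59 (217). Higher and lower genes are mixed along this stretch. Ren2 is one of the genes on an alternate locus and has no rank.

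Acadl, the long-chain acyl-CoA dehydrogenase of mitochondrial fatty acid oxidation, was lower on every knockout array. Its levels were 3.65, 4.28 and 3.94 on wild-type vehicle, 3.69, 3.81 and 3.85 on wild-type IIAEK, 3.37, 3.09 and 3.48 on knockout vehicle and 3.26, 3.05 and 3.28 on knockout IIAEK. The genotypes did not overlap, and the difference was -0.61 (SE 0.123, limma adjusted p = 0.279). Mogat1, a monoacylglycerol acyltransferase, had a difference of 1.52 (SE 0.330, adjusted p = 0.367), with wild-type IIAEK replicate 1 at -2.30 against -4.19 to -3.52 on the other wild-type arrays and -2.97 to -1.42 in the knockout. A dimmer Mogat1 probe, well above background on 1 array, differed by 1.86 without overlap, with wild-type IIAEK replicate 1 at -7.85. Farp2, an exchange factor for small GTPases, differed by 0.45 without overlap, and Ngef, an exchange factor of the same class, by -0.46 without overlap. Ipo9, a nuclear import receptor, differed by 0.72 without overlap in 1 probe and by 0.21 in a dimmer probe. Dars, the aspartyl-tRNA synthetase, differed by -0.58, and Pik3c2b, a phosphoinositide kinase, by 0.36 in 1 probe and -0.16 in another.

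Other large positive differences on chromosome 1 came from genes whose wild-type arrays disagreed in the brightest probe. Etnk2, an ethanolamine kinase, was at -5.87, -4.63 and -3.11 on wild-type vehicle and -3.001, -5.87 and -6.29 on wild-type IIAEK, and between -3.23 and -1.76 on the knockout arrays. Its difference was 2.50 (SE 0.570, limma adjusted p = 0.442), and 4 of 6 wild-type arrays were above background. A dimmer Etnk2 probe, well above background on 1 array, differed by 1.90 without overlap, with -8.08 to -7.41 in wild type. Ren2, a renin gene that some mouse strains carry beside Ren1, was at -4.63, -4.38 and -1.63 on wild-type vehicle, -2.27, -4.23 and -4.60 on wild-type IIAEK, -2.06, -1.58 and -0.11 on knockout vehicle and -0.73, -1.26 and -0.43 on knockout IIAEK. Wild-type vehicle replicate 3 and wild-type IIAEK replicate 1 stood apart from the other 4 wild-type arrays and near the knockout level. The difference was 2.60 (SE 0.576, adjusted p = 0.395), and it is uncertain which of the near-identical renin genes the probe reports. Cdh20, a cadherin, differed by 2.21 (SE 0.523, adjusted p = 0.487), with 2 of 6 wild-type and 6 of 6 knockout arrays above background. With normexp correction the differences of such dim genes were smaller, at 1.19 for Etnk2, 0.56 for Cdh20, 0.87 for Mogat1, -1.17 for Utp14b and -0.68 for Alppl2.

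A few arrays lay between the genotypes in several of these genes at once. For each of the 17 genes the position of an array was set to 0 at the wild-type median and 1 at the knockout median, as a description with no test, since the values chose the genes. Wild-type IIAEK replicate 1 was nearer the knockout median in 7 genes (Mogat1, Farp2, Cdh20, Dars, Pm20d1, Etnk2 and Ren2), with a median position of 0.320. Wild-type vehicle replicate 3 was nearer it in 3 (Pam, Etnk2 and Ren2), with a median position of 0.0812. Knockout vehicle replicate 1 was nearer the wild-type median in 3 (Stk25, Rab7b and Ipo9), with a median position of 0.695. In 6 arrays, among them all 3 of the knockout on IIAEK, no gene was nearer the other genotype. These positions use the brightest probe of each gene. In the dimmer probes of Mogat1 and Etnk2, mostly below background, wild-type IIAEK replicate 1 lay with the other wild-type arrays.

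**Figure D4:**
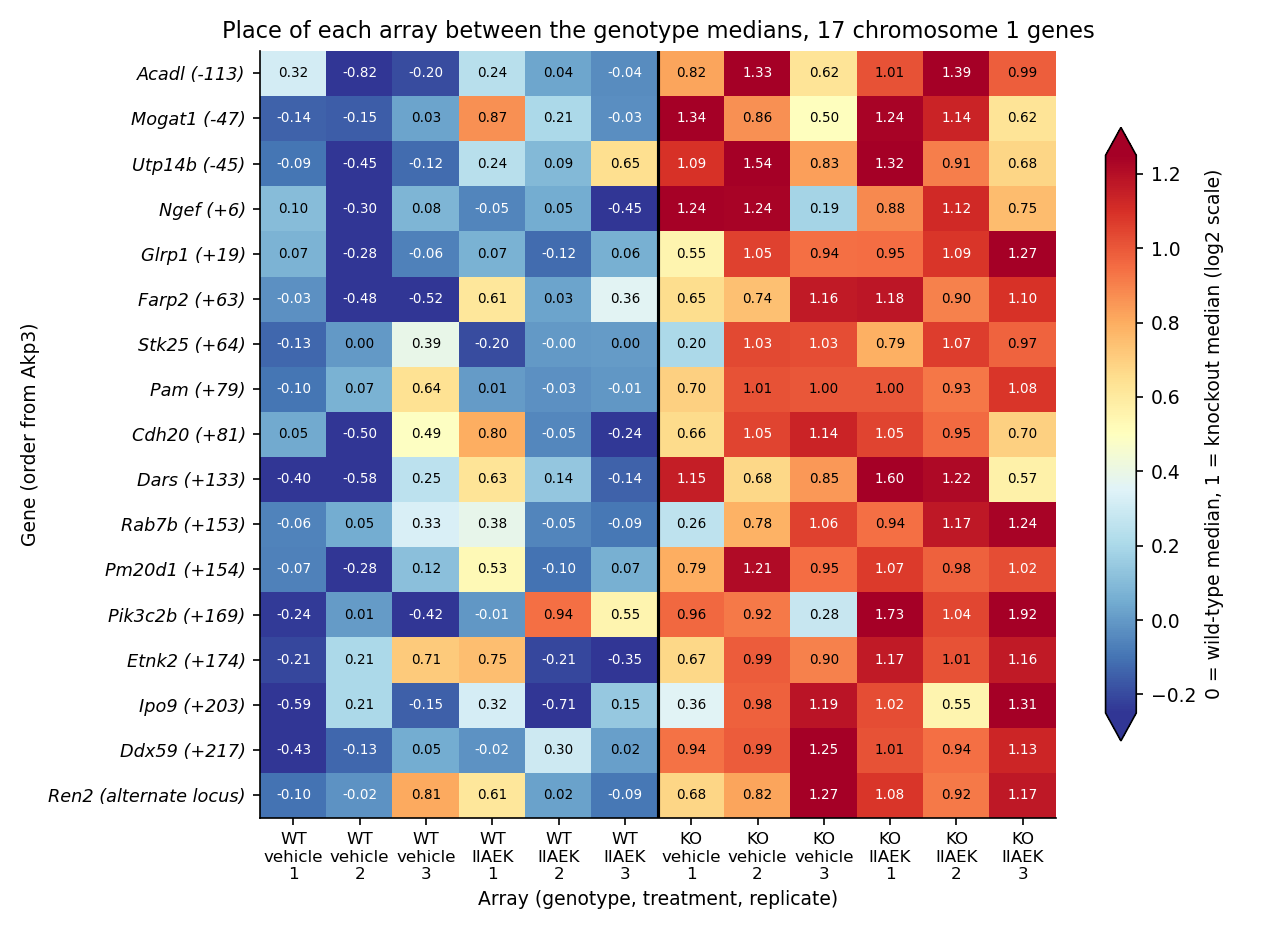
Position of each array (x axis, by genotype, treatment and replicate) between the wild-type median, 0, and the knockout median, 1, for 17 chromosome 1 genes (y axis, with the order from Akp3); colours are clipped beyond the ends of the scale. Wild-type IIAEK replicate 1 is nearer the knockout median in 7 genes, and knockout vehicle replicate 1 is nearer the wild-type median in 3.

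Genes outside chromosome 1 made up the rest of the 20 characterised genes with the smallest p, and none passed. Cfap100 on chromosome 6, a gene of cilia and flagella, had lowest, median and highest levels of -4.50, -3.82 and -3.17 in wild type, with -7.21, -7.00 and -4.53 on the knockout arrays. In the knockout 1 of 6 arrays, vehicle replicate 1, was above background. The difference was -2.74 (SE 0.405, limma adjusted p = 0.0783), and -3.15 without that array, which passed (adjusted p = 0.000909). With normexp correction it was -0.54. A second Cfap100 probe, well above background on 0 arrays, differed by 0.68. Eml5, a microtubule-associated protein gene on chromosome 12, differed by 0.59 (adjusted p = 0.237). Fgfrl1 on chromosome 5, an FGF receptor without a kinase domain, differed by 0.55 (adjusted p = 0.272), at -0.30 to -0.01 in wild type and 0.18 to 0.66 in the knockout. Zfp39 on chromosome 11, a zinc finger gene, differed by 0.50 (adjusted p = 0.279), and Kpna4 on chromosome 3, an importin, by -0.51 (adjusted p = 0.279). In these 5 genes the genotypes did not overlap. Zfp395, Wdr44 and Nol8 differed by 0.63, -0.41 and -0.44 (adjusted p = 0.367, 0.369 and 0.393), and their arrays overlapped. Zfp395 gave 1.07 on vehicle and 0.20 on IIAEK, and Wdr44 -0.79 and -0.04 (unadjusted p of the interaction 0.00821 and 0.00145). A second Wdr44 probe, well above background on all 12 arrays, differed by -0.06, with -0.30 on vehicle and 0.18 on IIAEK, so the probes of this gene disagree.

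Among probes without a symbol, the probe A_55_P1953082 showed one of the largest differences, 3.51 (SE 0.481, limma adjusted p = 0.0783). It lay between -1.40 and -0.16 on the knockout arrays and between -5.04 and -4.63 on 5 wild-type arrays, with wild-type vehicle replicate 3 at -1.70. The array also holds 2135 tested probes that are named by an mm9 position, and 10 of them differed in the same direction on both treatments, 3 of the 155 on chromosome 1. The probe for chr1:95871175-95886625 differed by 1.08 without overlap (adjusted p = 0.0783), that for chr1:58440355-58449627 by -1.44 (adjusted p = 0.279) and that for chr1:139795171-139796306 by -0.80 (adjusted p = 0.547).

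Gene lists for the functions and cells of the small intestine moved little in the genotype main effect, although some differed in opposite directions on the 2 treatments. In 43 lists with 606 tested members, 0 members passed the adjusted threshold, against 1 of all 27565 genes, and 3.80% had an unadjusted p under 0.05, 8 higher and 15 lower, against 5.37% of all genes. Over all genes the median difference was -0.0044 and 48.7% were higher in the knockout. The nutrient handling lists had medians near 0: 0.055 for brush border peptidases, 0.087 for disaccharidases and sugar transport, 0.11 for peptide and amino acid transporters, -0.0060 for cholesterol synthesis and -0.020 for sterol absorption and efflux. Within cholesterol synthesis, 12 of 24 members were higher and 12 lower. Some medians this near 0 changed sign between the slides, with -0.12 and 0.16 on slides 1 and 2 for brush border peptidases and 0.064 and -0.018 for cholesterol synthesis. In the same order, disaccharidases and sugar transport (0.042 and 0.13) and peptide and amino acid transporters (0.092 and 0.032) kept theirs. By treatment, the brush border peptidase median was -0.42 on vehicle and 0.55 on IIAEK, so its main effect averages opposite differences. Of its 15 tested members, 1 had the same sign on both. Medians on vehicle and IIAEK were -0.064 and 0.35 for peptide and amino acid transporters and 0.17 and -0.043 for cholesterol synthesis. They were 0.18 and 0.20 for disaccharidases and sugar transport and -0.13 and -0.0091 for sterol absorption and efflux.

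Genes with work close to that of IAP showed no call either. Of 18 genes of nucleotide and phosphate ester hydrolysis, 12 were lower and 6 higher, with a median of -0.093. Ada, adenosine deaminase, had the smallest p among them, with levels of 5.93 to 6.82 in wild type and 4.68 to 6.78 in the knockout and a difference of -0.91 (SE 0.308, limma adjusted p = 0.792). Entpd5, a nucleoside diphosphatase, differed by -0.30, and Slc28a2, a nucleoside carrier, by -0.79. Of 19 genes of endotoxin sensing and the NF-kB response, 13 were lower and 6 higher, with a median of -0.078 that was 0.068 within slide 1 and -0.25 within slide 2. Tnfaip3, an inhibitor of NF-kB signalling, differed by -0.36 (adjusted p = 0.7995) and Ccl2, a monocyte chemokine, by -0.68 (adjusted p = 0.916). Of 11 genes of phosphate and calcium handling, 8 were higher and 3 lower, with a median of 0.041, and Atp2b1, a plasma membrane calcium pump, differed by -0.22. Its direction was not shared, since 0 members of this list were lower on both treatments. On vehicle Atp2b1 ran from 1.77 to 1.96 in wild type and from 1.185 to 1.41 in the knockout. On IIAEK it ran from 1.35 to 1.59 in wild type and from 1.52 to 1.70 in the knockout.

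In stress and defence lists most members were lower in the knockout, without a call, and the size or sign of several medians turned with the slide. Of 23 interferon-stimulated genes, 22 were lower, 19 of them on both treatments, with a median of -0.33. The mean of their levels, centred on each gene's mean, was -1.44 on knockout vehicle replicate 3 and -0.82 on knockout IIAEK replicate 3, and between -0.16 and 0.62 on all other arrays. The list median was -0.11 without knockout vehicle replicate 3, 0.34 within slide 1 and -1.55 within slide 2. Of 15 heat shock chaperones, 13 were lower (median -0.21, with -0.0057 within slide 1 and -0.41 within slide 2), led by Hsp90aa1 at -0.32 (limma adjusted p = 0.688), with -0.57 on vehicle and -0.07 on IIAEK (unadjusted p of the interaction 0.0241). Of 23 genes of xenobiotic metabolism, 21 were lower (median -0.19), with a median of -0.50 on vehicle and 0.067 on IIAEK. Ankrd37, a hypoxia-responsive gene, had the smallest p of any list member outside the phosphatases and Acadl: its levels were -0.35 to 0.15 in wild type and -1.18 to -0.34 in the knockout, and it differed by -0.71 on vehicle and -0.55 on IIAEK (adjusted p = 0.515).

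Markers of tissue beside the epithelium varied widely between arrays. In such bulk samples fewer cells of a type and less RNA per cell cannot be told apart. All 19 tested exocrine pancreas genes were lower in the knockout, with a median of -1.84 that was 0.0035 on vehicle and -4.18 on IIAEK. The median was -0.31 without wild-type IIAEK replicate 3, -2.96 without wild-type IIAEK replicate 1 and -0.97 with the slide as a block. Their centred mean was 7.47 on wild-type IIAEK replicate 3 and 3.35 on knockout vehicle replicate 3, against -2.13 to 0.75 on the other arrays. Without those 2 arrays 0 genes passed in the main effect, and Glrp1 differed by -2.27 (limma adjusted p = 0.154). The same-direction count was then 108 and the opposite count 75, and chromosome 1 held 26.4% of the same-direction genes with a position. The part of pancreatic RNA in the genotype effect beyond these values was not tested.

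Of 12 adipocyte genes, 10 were higher (median 0.44), with 0.66 on vehicle and -0.094 on IIAEK, and Plin4, a lipid droplet protein, and Fabp4, a fatty acid binding protein of fat cells, differed by 0.78 and 0.60 (limma adjusted p = 0.869 and 0.885). All 9 MHC class II genes were lower (median -0.35), although their medians were 0.17 on vehicle and -0.87 on IIAEK. That median was 0.46 within slide 1, -1.24 within slide 2 and -0.12 without knockout IIAEK replicate 3. The 6 erythrocyte genes were all lower (median -0.54), while the array with their highest centred mean, 2.33, was knockout vehicle replicate 3. Their median was -0.29 within slide 1, 0.30 within slide 2, -0.084 with the slide as a block, -0.12 without knockout vehicle replicate 2 and -1.07 without knockout vehicle replicate 3. The B and plasma cell median of -0.065 came with 1.11 on vehicle and -1.07 on IIAEK and with 0.84 within slide 1 and -0.53 within slide 2, and the smooth muscle median of 0.22 came with 0.65 and -0.25.

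**Figure D5:**
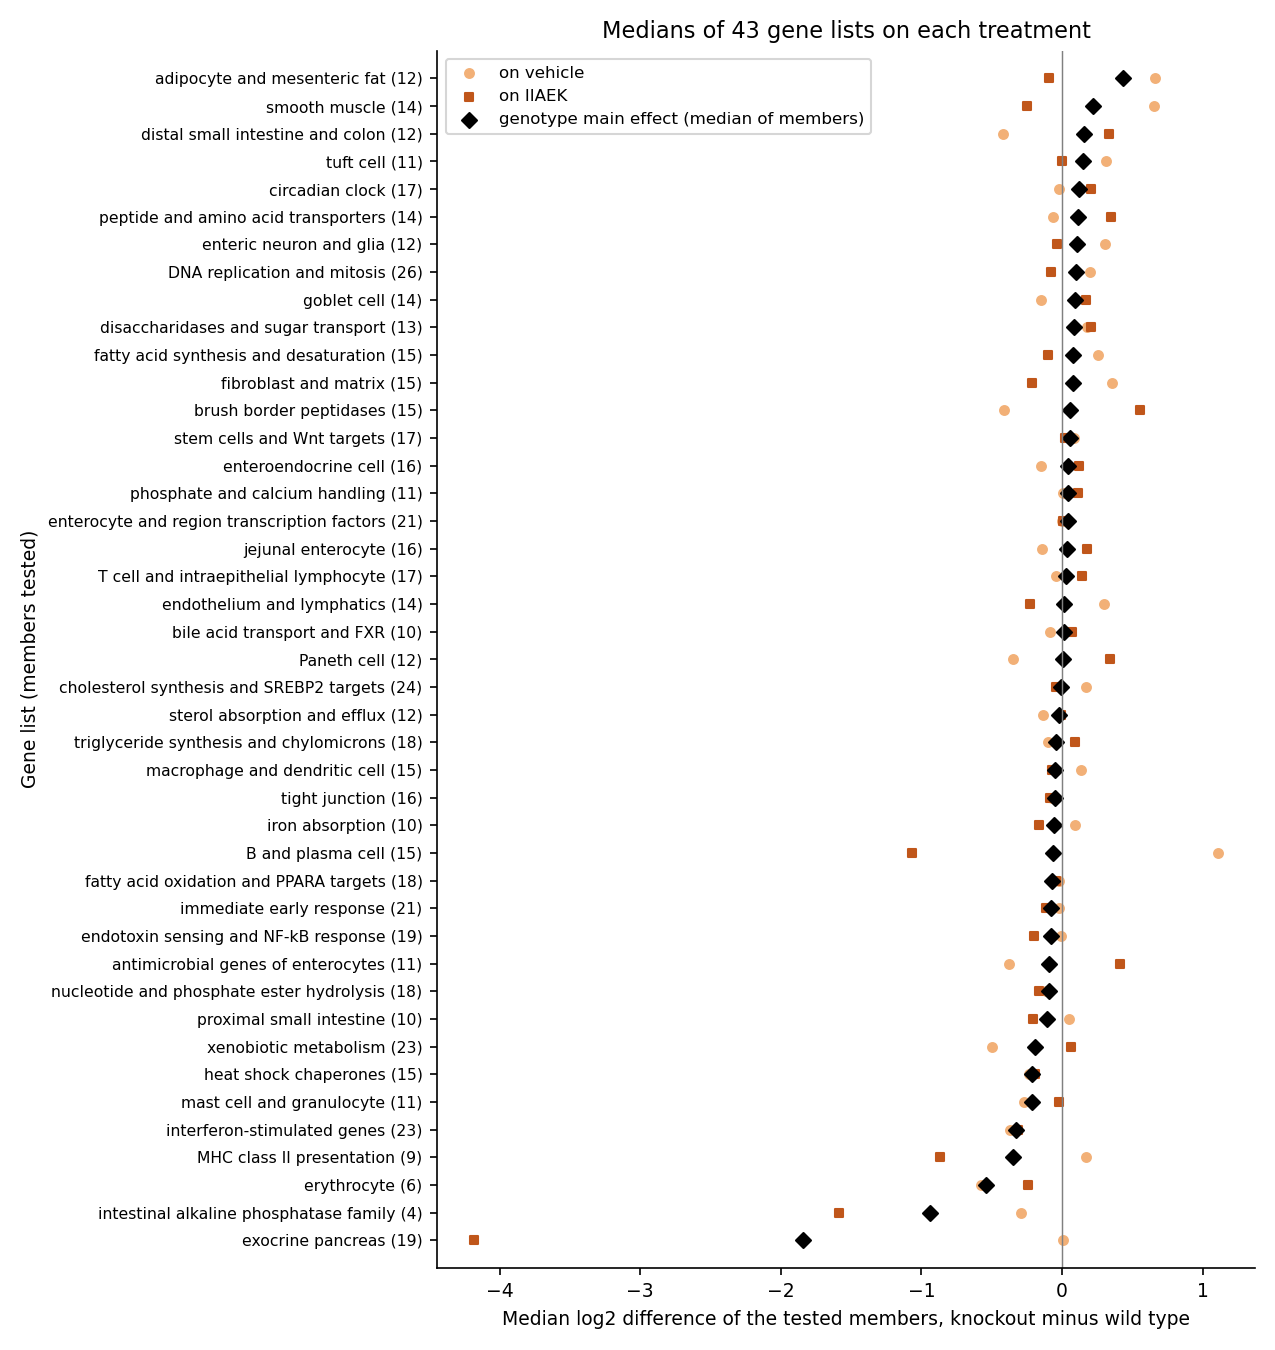
Median log2 difference, knockout minus wild type, of the tested members of 43 gene lists (y axis, with the number tested), on vehicle, on IIAEK and as the genotype main effect (x axis). Most main effects lie near 0, and several lists, such as B and plasma cell genes at 1.11 and -1.07, have medians of opposite sign on the 2 treatments.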

How the data were processed

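Jejunal RNA of 12 mice was hybridised with Cy3 label to 1-colour Agilent mouse arrays, 1 mouse per array. Per the file headers, the deposited array files hold the authors' processed signal as an intensity, background-subtracted by Feature Extraction 10.7.3.1 and not scaled between arrays, together with median intensities of each spot and its background. The deposited value table holds log2 values, which follow the scaled processed signal centred on each probe's median with correlations of at least 0.9997. Neither is stated, so both rest on this comparison; its column medians were -0.0797 to 0.149.

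The array has 56605 probes besides controls. RefSeq accessions named 32994, and 23611 kept their own names. After removal of 0 to 4 outlier spots per array, log2 processed signals were averaged per probe and the array's 75th percentile was subtracted. The brightest probe stood for a gene. A gene was tested if every array of 1 or more groups of 3 had it well above background (15812 with a symbol and 11753 unnamed probes). "At least" marks a fold against the detection limit of a group below background on all its arrays. limma 3.58.1 in R 4.3.3 fitted 4 group means over the 12 arrays, with 8 residual and 3.37 prior degrees of freedom. Tests were two-sided and adjusted by Benjamini-Hochberg over all genes, with a threshold of 0.05; the same steps were checked on simulated data. The p-values measure the spread between these arrays.

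Named were the alkaline phosphatases, the 20 characterised genes with the smallest p, up to 3 members of each described list, and the chromosome 1 genes of the same direction, which were chosen after their values were seen. The members and lists were chosen with earlier results of these data known, so a pattern shown before is no independent support. Gene order came from GRCm38.p6, whereas the array is annotated on mm9. The alternatives were other normalizations, filters and probe rules, the authors' table, slide and replicate blocks, single slides, an additive model and leaving out arrays. Normexp correction used median signals, since mean signals are not in the columns used. Replicate numbers were not used as pairs in the main fit. Over 18 same-numbered pairs the correlation of deviations ran from -0.252 to 0.346 (median 0.0659), and 8 exceeded 0.1. Over 36 other pairs the median was -0.0048. In every group replicate 1 lay on slide 1 and replicate 3 on slide 2, so these correlations cannot separate pairing from the slide.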

Additional observations from a re-analysis of the deposited data

How the results depend on the processing

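The main result was 1 gene past the threshold, with the same direction on both treatments, beside 111 same-direction and 214 opposite genes. The count past the threshold was 2 with normexp correction on median signals (Pam and Pm20d1), 4 with quantile normalization (Glrp1, Ddx59, Pam and Pm20d1), 2 with the mean of all tested probes, 0 with probes well above background on all 12 arrays, 0 within slide 1, 114 within slide 2 (103 in the same direction) and 0 without the 2 arrays highest in pancreas genes, an alternative chosen after seeing the data. The same-direction count was 195 without a filter on dim probes, 263 with the slide as a block and 762 within slide 2. The opposite count was 53 within slide 1, 505 within slide 2 and 75 without the 2 pancreas-high arrays. The percentage on chromosome 1 was 18.05 with the slide as a block, 18.97 within slide 1 and 7.14 within slide 2. Within slide 1 Ccl2 reversed to 0.0998 and within slide 2 Alpl reversed to -0.0805. Within a slide each treatment has 1 array of 1 genotype, assumed to vary like the others, so those counts are descriptions. With 1 array left out, the count past the threshold ran from 0, when knockout IIAEK replicate 2 was absent, to 10, when knockout vehicle replicate 1 was. It was 4 in the absence of wild-type vehicle replicate 3 and 8 in that of wild-type IIAEK replicate 1. The same-direction count ran from 82 to 166, the opposite count from 72, lacking wild-type IIAEK replicate 3, to 824, lacking knockout IIAEK replicate 1, and the percentage on chromosome 1 from 17.8 to 44.1. The Akp3 difference ran from -3.50 to -2.78 with 1 array left out and was -0.87 with normexp. With the replicate block 1 gene passed, 142 had the same direction and 209 opposite directions, and the gene that passed was again Glrp1. The cause of these shifts was not tested. Of 1170 values for 47 single genes other than Akp3, 1150 kept their direction and side of the threshold, 14 came to pass it, 4 no longer passed it and 2 reversed. The list medians, which have no test, had the opposite sign in 100 of 1075 values, in 31 of 43 lists, and 26 lists changed sign within a slide.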

Other observations

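A group of bright genes on several chromosomes moved together over the 12 arrays and was chosen after its values were seen. Notch1, Bptf, Pnma2, Trpm1, Prickle1, Pinx1, Treml2, Arhgef10l and B020031M17Rik had main effects of 0.636 to 1.22, with limma adjusted p between 0.506 and 0.647. Their pairwise correlations over the arrays were 0.867 to 0.994, given as a description. Notch1, the receptor that keeps crypt progenitors from the secretory fate, had levels of 3.34, 3.83 and 4.22 on wild-type vehicle, 4.59, 3.23 and 3.36 on wild-type IIAEK, 4.49, 5.38 and 5.42 on knockout vehicle and 5.11, 4.22 and 4.87 on knockout IIAEK. With the slide as a block the 9 differences were 0.721 to 1.18.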
